A study of Mus musculus with 9 samples.

Results

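Protamines and transition proteins are known as the small basic proteins that replace histones in the nuclei of spermatids, a description that fits the coding sequences of 4 of the 5 members and not Prm3, and their transcripts are described here in acRIP-seq libraries of mouse testis. The members were chosen by gene name and are the protamines Prm1, Prm2 and Prm3 and the transition proteins Tnp1 and Tnp2, which makes 5 genes of the 55401 in the table. All 5 passed the filter on low counts and were among the 22510 genes tested. The acRIP-seq assay pulls poly(A) RNA down with a bead-bound antibody against N4-acetylcytidine (ac4C), an acetylated cytidine that the enzyme NAT10 installs, and sequences what is recovered.

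The 9 libraries came from testes of wild-type (WT) male mice, of the ICR strain by the methods, and no group differed from another in genotype or treatment. The groups were 3 libraries of poly(A) RNA before precipitation (input), 3 pulled down with a rabbit control immunoglobulin (IgG) and 3 pulled down with the antibody to ac4C (acRIP), and an ac4C-containing β-globin probe was added before precipitation. The age of the mice, and whether the 3 libraries of a group came from separate animals or precipitations, are not given in the sources used here, so that p-values measure the spread between these libraries, which may be technical. Whole testis was used, so that a level joins the number of cells and the RNA in each of them, which cannot be told apart.

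Total counts on genes ranged from 22023925 to 31340090 in input, from 14647542 to 18786779 in IgG and from 16025779 to 18639134 in acRIP. The locus annotated for 18S ribosomal RNA took 0.54% to 0.61% of the counts in input, 5.14% to 5.57% in IgG and 9.35% to 10.59% in acRIP. Markers of the tissue were present, with all 6 spermatid and all 6 spermatocyte markers tested, whereas the Sertoli cell marker Rhox5 had 0 counts in all 9 libraries. The summed level of the spermatid markers was 3590 to 3656 CPM in input, 3439 to 3514 in IgG and 3714 to 3742 in acRIP, where CPM is a count scaled to the total count on genes of its library. This sum joins markers that moved in opposite directions. Odf1 had 3751 to 5523 counts in input and 18740 to 21608 in acRIP, while Spaca1, Tssk1 and Tssk2 were lower in acRIP than in input.

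In spermatids, histones are first exchanged for transition proteins and then for protamines, and the DNA becomes tightly packed. Arginine-rich stretches bind the DNA, and in protamines cysteines cross-link neighbouring molecules. The mRNAs are made in round spermatids, stored with RNA-binding proteins and translated days later, after transcription has stopped.

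The coding sequences show what sets the family apart. They are printed 5′ to 3′ from the GENCODE vM21 transcripts (mm10), with the arginine codons in capitals, whole for Prm1 and Tnp1 and as the first 150 coding bases for the other members.
Prm1: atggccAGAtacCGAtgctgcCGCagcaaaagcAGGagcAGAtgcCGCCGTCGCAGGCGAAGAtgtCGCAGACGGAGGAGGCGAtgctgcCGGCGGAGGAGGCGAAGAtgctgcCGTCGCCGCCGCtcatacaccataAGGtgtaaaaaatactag
Prm2: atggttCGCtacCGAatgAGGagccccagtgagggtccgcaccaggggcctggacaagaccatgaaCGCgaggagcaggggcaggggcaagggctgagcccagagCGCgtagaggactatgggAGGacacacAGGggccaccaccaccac
Prm3: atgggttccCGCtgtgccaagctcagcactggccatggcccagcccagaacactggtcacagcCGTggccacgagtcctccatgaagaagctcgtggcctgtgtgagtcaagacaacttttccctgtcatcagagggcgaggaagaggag
Tnp1: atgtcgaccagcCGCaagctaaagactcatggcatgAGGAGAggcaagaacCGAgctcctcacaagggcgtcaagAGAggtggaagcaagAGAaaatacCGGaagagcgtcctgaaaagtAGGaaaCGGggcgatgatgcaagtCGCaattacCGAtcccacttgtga
Tnp2: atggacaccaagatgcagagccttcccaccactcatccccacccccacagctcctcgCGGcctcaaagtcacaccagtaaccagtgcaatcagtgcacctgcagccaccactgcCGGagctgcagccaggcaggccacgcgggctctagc
Arginine codons made up 28 of the 51 codons of Prm1 (54.9%), in runs broken by cysteine codons, of which there were 9. They made up 38 of 107 codons in Prm2 (35.5%), the protamine that is made as a longer precursor and then trimmed, and the start of its coding sequence held 7 among 50 codons. Tnp1 had 11 arginine and 10 lysine codons among 55 and no cysteine codon, and Tnp2 had 16 arginine and 22 serine codons among 117. Prm3 carried the protamine name with 2 arginine codons among 101 and 27 glutamate codons (26.7%), so that it encodes an acidic protein where the other members encode basic ones.

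Since ac4C forms on cytidine, the cytidine content of the members was compared with the 15517 tested protein-coding genes. Cytidine made up 36.2% of the coding bases of Tnp2, at percentile 98.8 of those genes, and 47.0% of its codons ended in C. The share of coding bases was 26.8% in Prm1, 26.2% in Prm2 and 26.1% in Prm3, near the median of 25.8%, and 22.4% in Tnp1, at percentile 23.3. Over whole transcripts, cytidine made up 31.6% in Tnp2 (percentile 96.5), 28.8% in Prm1 (percentile 84.7) and 27.2% in Prm2 (percentile 73). It made up 25.4% in Prm3 (percentile 57.6) and 22.7% in Tnp1 (percentile 32.9). Codons ending in C made up 43.1% in Prm1, at percentile 95.8, and 32.7% in Prm2, Prm3 and Tnp1, where the median was 29.9%.

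Of the 5 genes, 4 lie together on the minus strand of chromosome 16 and span 17904 bases. In the direction of transcription they are Prm1 (ENSMUSG00000022501.6, mm10 chr16:10796326-10805839), Prm2 (ENSMUSG00000038015.6, chr16:10791380-10796134), Prm3 (ENSMUSG00000050058.6, chr16:10790505-10790914) and Tnp2 (ENSMUSG00000043050.8, chr16:10787936-10788660). The annotated ends were 191 bases apart between Prm1 and Prm2, 465 between Prm2 and Prm3 and 1844 between Prm3 and Tnp2. Tnp1 (ENSMUSG00000026182.6) lies alone on the minus strand of chromosome 1, at chr1:73015074-73015909. Merged exons measured 571 bases for Prm1, 894 for Prm2, 410 for Prm3, 437 for Tnp1 and 554 for Tnp2, between percentiles 4 and 15.9 of tested genes, whose median length was 3002.5 bases. Prm3 has a single exon.

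**Figure D1:**
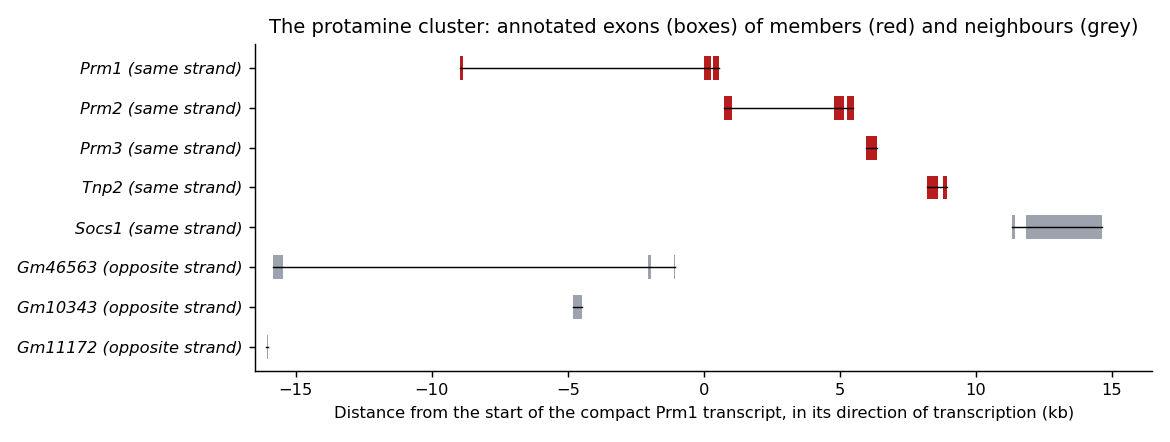
Map of the gene cluster on chromosome 16, drawn as distance in kb from the start of the compact Prm1 transcript. Boxes are annotated exons, lines join the exons of a gene, red marks members and grey marks neighbours, and the 4 red genes sit close together on one strand with Socs1 beyond Tnp2.

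Levels were compared between genes as FPKM, which is CPM divided by the length of merged exons in kilobases, and 4 of the 5 transcripts were among the 10 highest in every library. In input, Prm1 stood at 10046, 8899 and 7868 FPKM in the 3 libraries and Prm2 at 8651, 8414 and 8321. The ranges of both genes overlapped, and each ranked between 1 and 2 among all genes in input. Tnp2 stood at 7162, 6865 and 6469 FPKM in input and ranked 3 in each library. Tnp1 followed with 3922, 3454 and 3219 FPKM and Prm3 was lowest with 803.7, 732.0 and 688.3, at ranks 60 to 71. The ranges of Tnp2, Tnp1 and Prm3 did not overlap with each other or with those of Prm1 and Prm2. Input replicate 1 was the highest library and input replicate 3 the lowest for each of the 5 genes, and the coefficient of variation was 12.2% for Prm1, 10.1% for Tnp1 and 2.01% for Prm2.

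The recovered RNA held the same transcripts at the top. In IgG, Prm1 was measured at 10060 ± 178 FPKM (SD, n = 3), Prm2 at 9508 ± 140, Tnp2 at 7589 ± 228, Tnp1 at 3718 ± 144 and Prm3 at 1066 ± 33.4, and no 2 members overlapped. In acRIP, Prm1 was measured at 10510 ± 739 FPKM, Prm2 at 8498 ± 97.5, Tnp2 at 8158 ± 323, Tnp1 at 5026 ± 279 and Prm3 at 1073 ± 60.8. Prm2 and Tnp2 overlapped in acRIP, and the other neighbours in the order did not. The order of Prm1 and Prm2 depended on the length used: with the length of the compact 2-exon transcripts, chosen after seeing the data, the ratio of Prm1 to Prm2 was 0.892 in input, 0.895 in IgG and 1.05 in acRIP, against 1.06, 1.06 and 1.24 with merged exons. Together the 5 genes took 1.72% to 1.95% of all counts in input, 2.01% to 2.08% in IgG and 1.99% to 2.14% in acRIP, so that the IgG and acRIP libraries both lay above the input libraries and overlapped with each other. With ribosomal RNA-like and mitochondrial genes left out of the totals, the share was 1.74% to 1.97%, 2.16% to 2.23% and 2.25% to 2.45%, and the 3 groups did not overlap.

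**Figure D2:**
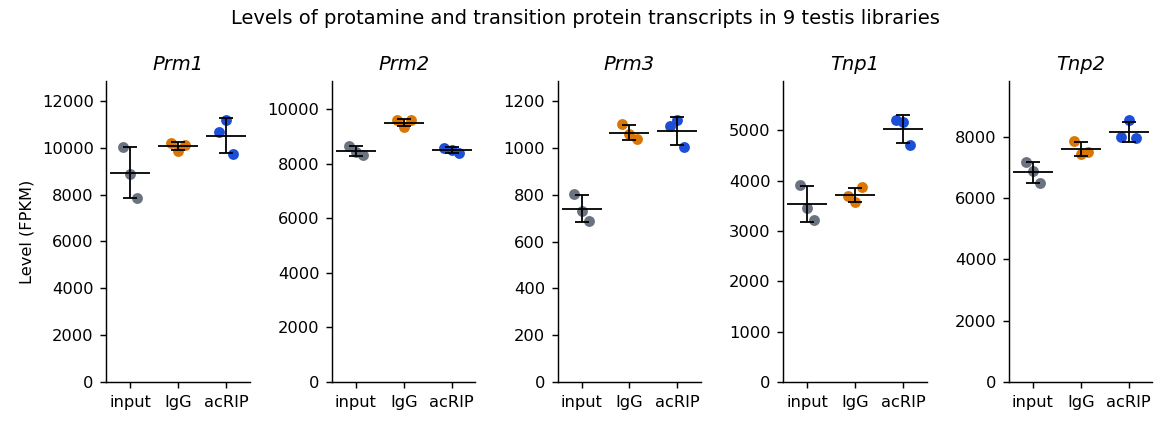
Levels of the 5 transcripts in FPKM (vertical axes, each from 0), with 1 point per library and a black bar for the mean ± SD of 3 libraries in input, IgG and acRIP. Tnp1 is highest in the 3 acRIP libraries, while Prm3 is lowest in the 3 input libraries and overlaps between IgG and acRIP.

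Recovery by the anti-ac4C antibody was first compared with recovery by IgG, the control for unspecific recovery. Tnp1 rose the most, Tnp2 and Prm1 rose slightly, Prm2 fell slightly and Prm3 did not pass the test. None of the 5 differed 2-fold, the size the study used when it called a transcript ac4C(+) from its enrichment over both control groups. By edgeR's quasi-likelihood test 3 members were higher at an adjusted p under 0.05, where 26.4% of all tested genes were, and 1 was lower, where 37.6% were. The count past 2-fold in either direction was 0 by edgeR at adjusted and at unadjusted p and 0 by DESeq2, where 32.4% of tested genes passed by edgeR. Fold changes below are log2 values from that edgeR fit, with the standard error (SE), and the median over all tested genes was −0.09 for acRIP over IgG.

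Tnp1, the smaller transition protein, was measured at 5203, 5170 and 4704 FPKM in acRIP and at 3699, 3584 and 3870 in IgG. Every acRIP library lay above every IgG library. The log2 fold change was 0.48 (SE 0.05, edgeR adjusted p = 3.65e-10), a 1.40-fold difference at percentile 77.6 of tested genes. Tnp1 has an antisense neighbour, 1700027A15Rik (ENSMUSG00000101968.6), that shares 40 exon bases with it and had 12288 to 35361 counts per library. That neighbour was higher in acRIP than in IgG as well, by 0.37 (SE 0.04, edgeR adjusted p = 2.94e-09), and since it is not given whether counting used the strand, reads of the shared bases cannot be told apart.

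Tnp2, the zinc-binding transition protein, was measured at 7998, 8529 and 7946 FPKM in acRIP and at 7851, 7432 and 7485 in IgG. The groups did not overlap, and the log2 fold change was 0.15 (SE 0.03, edgeR adjusted p = 0.000157). The call was lost on log2(FPKM + 1) with limma (unadjusted p = 0.0797). It had the highest share of coding cytidine among the members, and Tnp1, with the lowest, had the larger fold change. Whether cytidine content went with recovery was not tested.

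Prm1 was measured at 10654, 11173 and 9714 FPKM in acRIP and at 10208, 9864 and 10120 in IgG. The groups overlapped, since acRIP replicate 3 lay below each IgG library. The log2 fold change was 0.11 (SE 0.05, edgeR adjusted p = 0.0479). The call was lost with DESeq2 (adjusted p = 0.228), without a scaling factor (edgeR adjusted p = 0.264), on log2(FPKM + 1) with limma (unadjusted p = 0.525), and in edgeR fits without acRIP replicate 1 (adjusted p = 0.114) or 2 (0.264), without IgG replicate 1 (0.0938), 2 (0.157) or 3 (0.0784) and without input replicate 2 (0.0535).

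Prm2 was the only member that was lower in acRIP than in IgG. It was measured at 8587, 8515 and 8394 FPKM in acRIP and at 9589, 9346 and 9590 in IgG, and the groups did not overlap. The log2 fold change was −0.11 (SE 0.02, edgeR adjusted p = 0.000104), close to the median of all tested genes. Prm3 was measured at 1096, 1119 and 1004 FPKM in acRIP and at 1103, 1058 and 1038 in IgG, and these ranges overlapped. Its log2 fold change was 0.06 (SE 0.05, edgeR adjusted p = 0.295), with a 95% interval from −0.04 to 0.16. Without acRIP replicate 3 it passed the test, at 0.12 (edgeR adjusted p = 0.0403).

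Against input, the RNA before precipitation, all 5 members were higher in acRIP. This was a count of 5 at an edgeR adjusted p under 0.05, where 32.0% of tested genes were higher and 40.3% lower, and the median over all tested genes was −0.10. Prm3 had the highest log2 fold change, 0.61 (SE 0.05, edgeR adjusted p = 9.68e-13), followed by Tnp1 with 0.59 (SE 0.05, edgeR adjusted p = 1.12e-12). Both were higher in every acRIP library than in every input library. Tnp2 rose by 0.34 (SE 0.03) and Prm1 by 0.31 (SE 0.05), and their acRIP libraries lay above all input libraries after TMM scaling, while Prm1 overlapped on the FPKM scale. Prm2 rose by 0.09 (SE 0.02, edgeR adjusted p = 0.00151), and it too overlapped between the groups on the FPKM scale but not after TMM scaling. The call was lost with upper quartile factors (0.04, adjusted p = 0.165) and without a scaling factor (0.00, adjusted p = 0.857), and on log2(FPKM + 1) with limma (unadjusted p = 0.849). The count past 2-fold was 0 by edgeR at adjusted and at unadjusted p and 0 by DESeq2, where 40.6% of tested genes passed by edgeR.

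RNA recovered with IgG was compared with input in the same way, to give the background of the precipitation. Prm1, Prm2, Prm3 and Tnp2 were higher in IgG, a count of 4 where 25.9% of tested genes were higher and 26.0% lower. Prm3 again had the highest log2 fold change, 0.55 (SE 0.05, edgeR adjusted p = 1.71e-11), near its value of 0.61 in acRIP over input. Prm1 (0.20), Prm2 (0.20) and Tnp2 (0.18) lay close together, and Tnp1 had 0.10 (SE 0.05, edgeR adjusted p = 0.064), which passed the test without input replicate 1 (0.19, adjusted p = 0.000438), without acRIP replicate 2 or 3 and without IgG replicate 2 (adjusted p = 0.0438, 0.0311 and 0.048). With all 9 libraries, Tnp1 also passed without the filter on low counts (edgeR adjusted p = 0.0311) and with the replicate number as a block (0.0118). It passed as well with a filter of at least 10 counts in every library of a group (0.044). In a fit of only the 6 libraries compared, its edgeR adjusted p was 0.0288. Tnp1 did not pass with DESeq2 (adjusted p = 0.323), with upper quartile factors (edgeR adjusted p = 0.927) or without a scaling factor (0.177). The call of Prm1 was lost with DESeq2 (adjusted p = 0.0799), with upper quartile factors (0.0874) and on log2(FPKM + 1) with limma (unadjusted p = 0.0884). The count past 2-fold was 0 by edgeR at adjusted and at unadjusted p and 0 by DESeq2, where 20.7% of tested genes passed by edgeR. The acRIP comparisons share the acRIP libraries and the input comparisons share the input libraries, so the values are given side by side only.

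**Figure D3:**
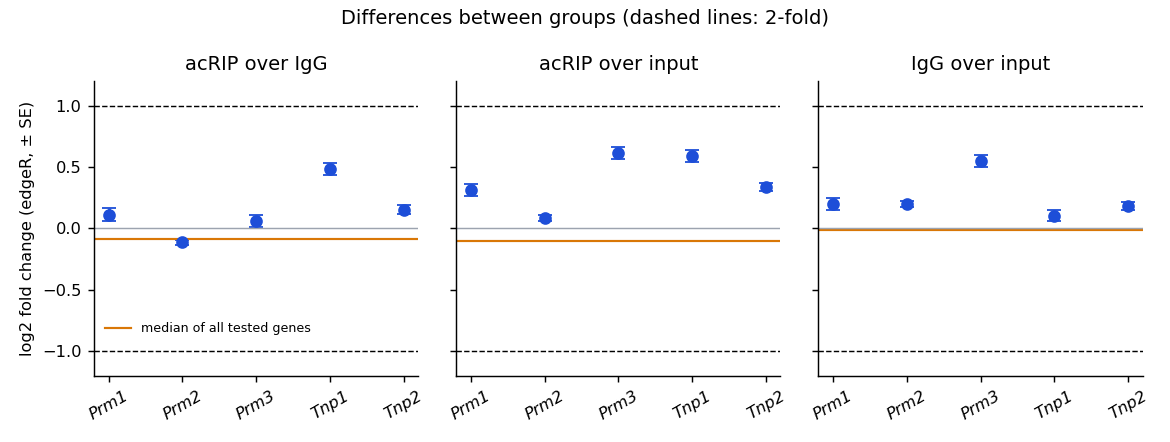
log2 fold changes (vertical axis, edgeR, ± SE) of the 5 transcripts in acRIP over IgG, acRIP over input and IgG over input. Orange lines are the medians of all tested genes and dashed lines mark 2-fold, and every member lies between the dashed lines, with Tnp1 highest over IgG at 0.48 and Prm3 highest over input at 0.61 and 0.55.

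No member was higher than both control groups by over 2-fold, where 7.88% of tested genes were, and none was lower by that size, where 17.0% were. Without the limit on size, 3 members (Prm1, Tnp1 and Tnp2) were higher than both groups at an adjusted p under 0.05, where 18.2% of tested genes were, and the call of Prm1 over IgG was lost under the alternatives named above. The ratio of group means of FPKM + 1, the form of the study's own enrichment, reached at most 1.35 over IgG (Tnp1), 1.45 over input (Prm3) and 1.44 for IgG over input (Prm3). Most of the abundant genes lay within 2-fold, since of the 100 with the highest mean level, 99 did so in acRIP over IgG, 91 in acRIP over input and 91 in IgG over input. The 4053 tested genes of up to 1000 bases, the length class of the members, had median log2 fold changes of 0.06 over IgG and 0.08 over input in acRIP.

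**Figure D4:**
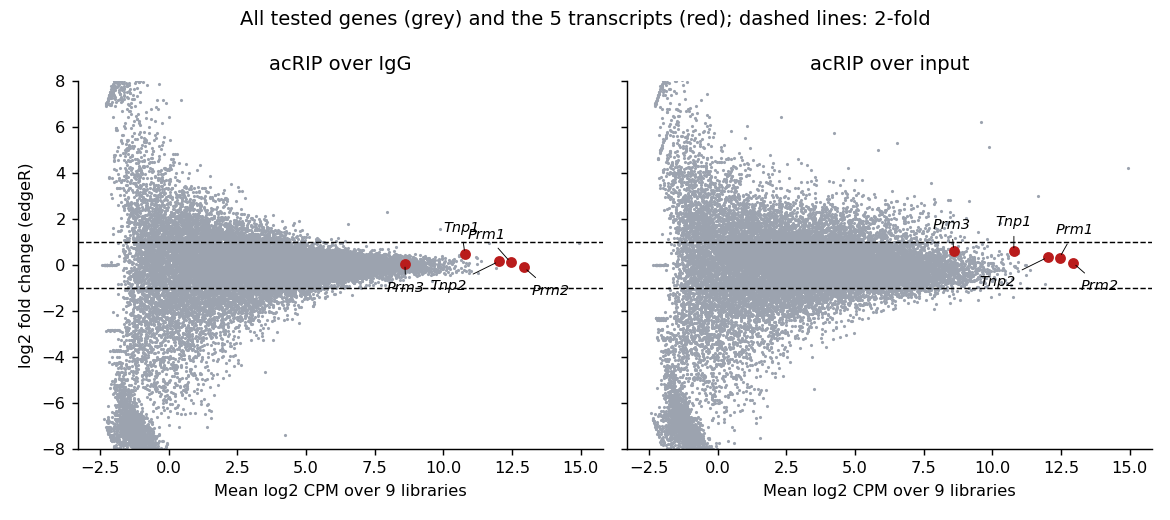
log2 fold change (vertical axis, edgeR) against mean log2 CPM over the 9 libraries (horizontal axis) for the 22510 tested genes in grey and the 5 members in red, for acRIP over IgG and acRIP over input, with dashed lines at 2-fold. The members sit at the right, among the most abundant genes, where few points pass 2-fold, and genes beyond 8 on the vertical axis are outside the plot.

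Ratios between transcripts of the same library do not depend on the scaling between libraries, and they show how the members stood to each other in each group. For each pair of members, the FPKM ratio was compared between groups by the exact two-sided permutation test, 30 tests in all. With 3 against 3 libraries this test cannot give a p below 0.10, which 20 tests reached (adjusted p = 0.15), and no ratio therefore passed the threshold.

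The ratio of Prm2 to Tnp1 had the largest difference between acRIP and IgG among the 10 pairs. It was 1.65, 1.65 and 1.78 in acRIP, 2.59, 2.61 and 2.48 in IgG and 2.21, 2.44 and 2.58 in input, so that acRIP lay below both other groups without overlap. Relative to Prm2, Tnp1 was therefore highest in the acRIP libraries. The ratio of Tnp1 to Tnp2 was 0.516 ± 0.0274 in input (SD, n = 3), 0.490 ± 0.0239 in IgG and 0.616 ± 0.0305 in acRIP, and every acRIP library lay above every other library. Prm1 to Prm2, the balance of the 2 protamines that package sperm DNA, was 1.24, 1.31 and 1.16 in acRIP, 1.065, 1.055 and 1.055 in IgG and 1.16, 1.06 and 0.946 in input. The acRIP libraries lay above the IgG libraries and overlapped with input.

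Prm3 had its lowest ratio to Tnp2 in input. The ratio to Tnp2 was 0.137, 0.131 and 0.126 in acRIP, 0.140, 0.142 and 0.139 in IgG and 0.112, 0.107 and 0.106 in input. No group overlapped with another, and IgG was highest. Its ratio to Tnp1 overlapped between acRIP (0.214 ± 0.00287, SD, n = 3) and input (0.210 ± 0.00468) and was higher in IgG (0.287 ± 0.0165).

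**Figure D5:**
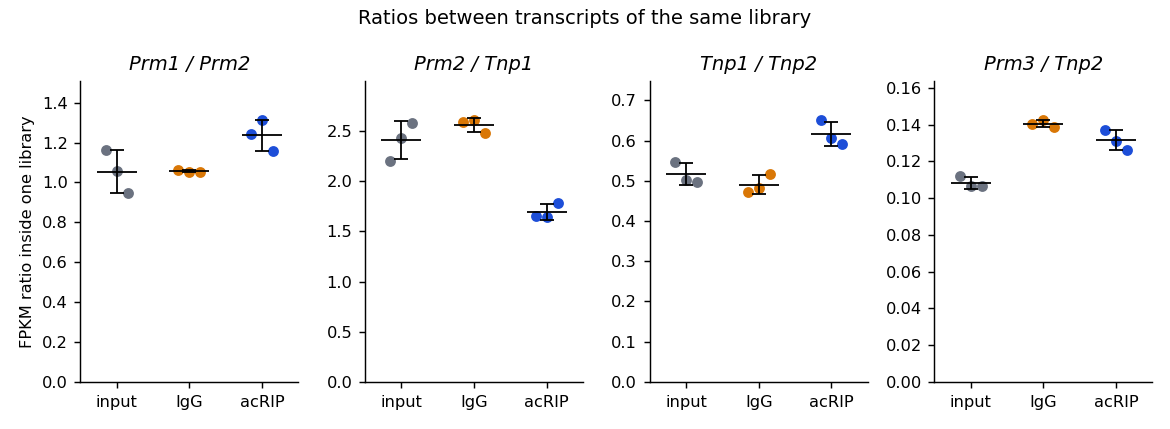
FPKM ratios of 4 pairs of transcripts inside each library (vertical axes, each from 0), with 1 point per library and a black bar for the mean ± SD of 3 libraries. Prm2 to Tnp1 is lowest and Tnp1 to Tnp2 highest in acRIP, and Prm3 to Tnp2 is lowest in input.

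Profiles over the 9 libraries were compared as log2 CPM centred on each gene's mean, by the root mean squared difference. Prm1 and Tnp2 were the closest pair, at 0.0617. Tnp2 ranked 4 among all tested genes by likeness to Prm1, and Prm1 ranked 41 by likeness to Tnp2. Prm2 and Tnp1 were farthest apart, at 0.270. Among 15517 protein-coding genes, those nearest to the members' mean profile were St8sia3 (0.0326), a sialyltransferase, Gfer (0.0337), a sulfhydryl oxidase of mitochondria, Edf1 (0.0371), Tppp2 (0.0379), a tubulin-associated protein of sperm, and Use1 (0.0417), a SNARE protein. Their log2 fold changes in acRIP over input, from 0.35 (Edf1) to 0.44 (Gfer), follow from this choice by likeness and are no test, and their levels ran from 4.70 FPKM (St8sia3) to 205.8 FPKM (Tppp2) in input, under those of all members.

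Neighbouring genes at the cluster were measured at low levels. Socs1, an inhibitor of cytokine signalling that lies 2400 bases beyond Tnp2 on the same strand, had 34 to 86 counts in input, 46 to 62 in IgG and 0 to 4 in acRIP. Its log2 fold change in acRIP over IgG was −4.56 (SE 0.57, edgeR adjusted p = 4.8e-08), where Tnp2 had 0.15. The pseudogene Gm10343, on the opposite strand within the long intron of Prm1, had 4 to 9 counts in acRIP and 50 to 111 in IgG (log2 fold change −3.58, SE 0.47, edgeR adjusted p = 9.56e-08). Gm46563, an antisense gene that overlaps the span of Prm1 with no shared exon bases, had 35 to 90 counts and did not pass the test (0.38, SE 0.27, edgeR adjusted p = 0.211). Rmi2 fell by 1.35 (SE 0.50) and Clec16a rose by 0.64 (SE 0.13) in acRIP over IgG, Gm11172 had 0 counts in all libraries, and Gm26822, with at most 4 counts, was not tested.

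Other genes of the histone-to-protamine exchange were taken from lists by role, and the members' changes are set beside them. The list of spermatid histones also holds replacement variants such as H3f3a, H3f3b, H2afz, H2afv and H2afx. Of its 15 tested genes, 2 were higher and 7 lower in acRIP over IgG, with a median log2 fold change of −0.07. Hist1h1t, a testis-specific linker histone, had 16 to 46 counts in IgG, 32 to 81 in input and 0 in each acRIP library. Against a floor of 3 counts per library, it was at least 10.2-fold lower than IgG and at least 10.7-fold lower than input (edgeR adjusted p = 1.11e-07 and 3.98e-08). The more abundant H1fnt and Hils1 of the same list, at 271 and 1280 FPKM in acRIP, were at −0.12 (SE 0.04) and −0.07 (SE 0.03) over IgG. Hist1h2aa had 4 to 10 counts in IgG, 5 to 30 in input and 0 in each acRIP library, at least 2.21-fold lower than IgG and at least 3.70-fold lower than input on the same floor (edgeR adjusted p = 0.0018 and 0.000162). Hist1h1t and Hist1h2aa were the only histones of the list past 2-fold against both groups. The floor covers counting error in acRIP only and takes counts as independent. Where both mates of a pair were counted, these bounds would be smaller.

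Among 27 tested genes of histone exchange and modification, 10 were higher and 10 lower in acRIP over IgG, with a median of −0.01. Top2b, a topoisomerase that makes transient DNA breaks, had 410 to 564 counts in acRIP, 192 to 259 in IgG and 140 to 213 in input, and it was the only gene of the list past 2-fold above both groups (1.14, SE 0.13, edgeR adjusted p = 3.49e-09 over IgG and 2.18, SE 0.13, edgeR adjusted p = 6.03e-16 over input). Parp2, which adds ADP-ribose at DNA breaks, had 31 to 58 counts in acRIP, 122 to 176 in IgG and 298 to 501 in input, and its log2 fold change over IgG was −1.68 (SE 0.21, edgeR adjusted p = 5.21e-08). Chd5, a chromatin remodeller of spermatids, was lower than IgG by less than 2-fold (−0.62, SE 0.07, edgeR adjusted p = 2.64e-08).

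Of 20 tested regulators of transcription in spermatids, 3 were higher and 10 lower in acRIP over IgG, with a median of −0.11. Creb1 was past 2-fold at −1.04 (SE 0.16, edgeR adjusted p = 2.1e-06) and Rfx4 followed with −0.84 (SE 0.06, edgeR adjusted p = 2.45e-12), while Crem, the activator of many protamine-type genes and named here for that role, was at −0.10 (SE 0.04, edgeR adjusted p = 0.0295). Of 22 tested genes for storage and translation of spermatid mRNA, 7 were higher and 9 lower, with a median of −0.04 and none past 2-fold. Rbm5, a splicing factor, was at −0.94 (SE 0.07) and Piwil1, the PIWI protein of spermatocytes and round spermatids, at −0.50 (SE 0.04). Ybx2, which binds stored protamine mRNA and is named here for that role, had 82.5 ± 0.734 FPKM in input (SD, n = 3), 223 ± 11.6 in IgG and 287 ± 6.56 in acRIP. Its log2 fold change was 0.41 (SE 0.04) over IgG and 1.88 (SE 0.04) over input, and 1.47 (SE 0.04) for IgG over input.

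Of 39 tested genes of spermatid structure, such as those of the acrosome and the sperm tail, 19 were higher and 11 lower in acRIP over IgG, with a median of 0.05, and over input 9 were higher and 22 lower, with a median of −0.17. Gsg1l, better known as an auxiliary subunit of glutamate receptors in the brain, had 16 to 20 counts in IgG and 0 in each acRIP library. On the same floor, and with the same limits, it was at least 5.93-fold lower than IgG (edgeR adjusted p = 3.58e-05). It had 0 to 4 counts in input, so that no fold of acRIP over input is given, and it was higher in IgG than in input by 3.27 (SE 0.81, edgeR adjusted p = 0.00107). Tssk4, a kinase of spermatids, was at −0.48 (SE 0.06, edgeR adjusted p = 3.37e-08). The medians of the 5 members were 0.11 over IgG, 0.34 over input and 0.20 for IgG over input, where those of all tested genes were −0.09, −0.10 and −0.01.

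Markers of testis cell types are set beside the members. The 6 spermatid markers had a median of 0.11 in acRIP over IgG, with 3 higher and 1 lower, and −0.21 in acRIP over input, with 1 higher and 3 lower. The 1 higher over input was Odf1, at 2.8 (SE 0.04), and it was at 2.38 (SE 0.04) in IgG over input. Spaca1 (−0.71), Tssk1 (−0.68) and Tssk2 (−0.42) were the 3 lower. All 6 spermatocyte markers were lower in acRIP over IgG, with a median of −0.30, and their summed level was 1031 to 1081 CPM in acRIP, 1336 to 1386 in IgG and 1316 to 1388 in input. The 4 tested of 6 Sertoli cell markers had a median of 0.42, the 6 Leydig cell markers 0.09, the 4 peritubular markers 0.41, the 6 markers of spermatogonia −0.10 and the 3 tested of 4 blood markers −2.92. Zbtb16, a factor of spermatogonial stem cells, Tagln, of smooth muscle, and Ptprc, of leukocytes, were past 2-fold above both groups, at 2.13 (SE 0.29), 4.08 (SE 0.63) and 2.09 (SE 0.41) over IgG. These rest on few counts in IgG, with 20 to 50 for Zbtb16, 0 to 6 for Tagln and 6 to 36 for Ptprc. Other markers of the same cell types went the other way. Gfra1, the receptor of spermatogonial stem cells, was at −2.11 (SE 0.20) and Stra8, which marks entry into meiosis, at −1.07 (SE 0.15) over IgG. In the blood list, Cd68, of macrophages, was at −4.43 (SE 0.54) with 0 to 12 counts in acRIP. Alas2, of erythroid cells, was at −2.92 (SE 0.18) with 32 to 36 counts in acRIP.

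The lowest markers of the other lists differed less from IgG. Spo11, which makes meiotic DNA breaks, was at −0.68 (SE 0.06) and Piwil1 second lowest among the spermatocyte markers, and Tssk1 was at −0.20 (SE 0.03) and Spaca1 at −0.05 (SE 0.04, edgeR adjusted p = 0.281) among those of spermatids. Sox9 was at −0.43 (SE 0.15) and Cldn11 at 0.16 (SE 0.07) among those of Sertoli cells, and Cyp17a1 was at −0.36 (SE 0.04) and Cyp11a1 at 0.06 (SE 0.05, edgeR adjusted p = 0.318) among those of Leydig cells. Acta2 was at −0.06 (SE 0.09, edgeR adjusted p = 0.561) and Myh11 at 0.22 (SE 0.18, edgeR adjusted p = 0.289) among peritubular markers. The part of cell type markers in the members' values was not tested.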

How the data were processed

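Counts were those the authors deposited, without normalization, for 9 libraries of mouse testis poly(A) RNA. By the methods and the submitters' processing notes, libraries were made by Smart-seq2, and reads were trimmed with Trim Galore 0.6.7, mapped to mm10 with STAR 2.7.10a and counted, when uniquely mapped, with featureCounts 2.0.2. Neither the annotation release, the use of strand nor the unit counted (reads or fragments) is given in the sources used here. Of genes with low counts, 81.9% to 84.3% were even numbers, which counting both mates of a pair gives, so that counting error exceeds what the counts show.

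The quasi-likelihood test of edgeR 4.0.16 (R 4.3.3) was run after filterByExpr and TMM, with 1 mean per group over all 9 libraries and Benjamini-Hochberg adjustment over 22510 genes. DESeq2 1.42.0, which the methods name, and limma 3.58.1 on log2(FPKM + 1), read at an unadjusted p under 0.05, were alternatives. FPKM used the deposited lengths of merged exons. On simulated acRIP and IgG counts edgeR recovered 91.4% of 185 changed genes among 21724 and called 7 unchanged genes, DESeq2 recovered 88.1% and called 10, and limma on FPKM recovered 92.5% of 200 among 35016 and called 2068, which is 5.94% of the unchanged genes. The simulation changed far fewer genes than were called in the data and held no shift in ribosomal RNA between groups. Its rates of false calls may therefore not hold for these libraries. The mean chi-square per gene between libraries of a group was 3.85 to 5.84, where independent reads give about 1, so that no pair differed by less than sampling noise. Names, transcripts and codons came from GENCODE vM21 (55141 of 55401 identifiers matched, 54821 with the same coordinates). Columns of per-sample values left unused numbered 0.

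The members and lists were chosen with earlier results of these data known. Named from each list were the genes over 2-fold above both groups and the 2 lowest over IgG, besides genes within 50 kb of a member and the 5 nearest profiles. Other genes named were chosen for their role after their values were seen. Protein sequences were not used here.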

Additional observations from a re-analysis of the deposited data

How the results depend on the processing

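Under the alternatives run (other scaling factors, filters and fits, DESeq2, log2 FPKM with limma, halved counts, the replicate number as a block, and fits that left out 1 of the 9 libraries), no member changed direction in any of the 3 comparisons. Of the members' fold changes under those alternatives 285 kept their side of the threshold, 10 passed it and 35 lost it, among them 13 under a test against 2-fold, which no member passed. On log2(FPKM + 1) and log2(FPKM + 0.1) with limma, at an unadjusted p under 0.05, 1 member was higher in acRIP over IgG. With log2(FPKM + 0.1), 3 were higher in acRIP over input and 2 in IgG over input. The share of all genes that passed this limma rule is not given here, so these counts have no background beside them. With coding length in place of merged exons, the ratio of Prm1 to Prm2 was 1.414 in input, 1.418 in IgG and 1.657 in acRIP, and that of Tnp1 to Tnp2 was 0.866, 0.8225 and 1.034. With the compact transcripts, an alternative chosen after seeing the data, as were the halved counts, the ratio of Prm1 to Prm2 was 0.8921, 0.8951 and 1.046. The median of all tested genes moved from −0.10 to −0.44 in acRIP over input without the filter on low counts, which adds genes of few reads, and to −0.28 with log2(FPKM + 0.1).

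Deviations from the group means correlated at −0.014 to 0.033 between same-numbered libraries and at −0.032 to 0.026 between others. The sources used here do not say whether same-numbered libraries were paired, and these correlations, over 3 libraries a group, cannot settle it. In acRIP over IgG, the SE of each member was smaller with the replicate number as a block, for Prm1 0.034 against 0.05. With the replicate number as a block, 7196 genes were past 2-fold in acRIP over IgG (7291 without it), 8988 in acRIP over input (9129) and 4453 in IgG over input (4654), and the block changed 1 call of a member, Tnp1 in IgG over input (0.11, edgeR adjusted p = 0.0118). At 6263 to 242385 counts per library, depth limited the members little, and the 3 libraries a group limited the exact tests.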
